A study of Mus musculus with 8 samples.

Results

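Glucose enters a cell through facilitative transporters, is trapped as glucose phosphate by a hexokinase and is then split and oxidised to pyruvate by the enzymes of glycolysis. Most of these steps can be run by several isoforms, products of different genes that catalyse the same reaction and differ in affinity, regulation and tissue. The transcripts of 34 genes of glucose uptake and glycolysis were followed step by step and isoform by isoform in mouse melanoma cells. They were chosen by gene symbol among the 55414 genes of the expression table, with earlier results of these data known: 5 glucose transporters, the hexokinases, the enzymes that lead from glucose phosphate to pyruvate, and the enzymes that set the level of the phosphofructokinase activator. All 34 symbols were found, on 35 rows, since *Aldoa* stood on a further row whose annotated exons overlap those of the main gene.

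The cells were B16F10, a pigmented mouse melanoma line. CypD (cyclophilin D), the product of *Ppif*, is a proline isomerase inside mitochondria, best known as a sensitiser of the permeability transition. In that transition a large pore opens in the inner membrane. Total RNA was sequenced from 8 libraries in 4 groups of 2: wild-type cells (WT) and *Ppif* knockout cells (CypD KO), both kept at 21% oxygen, and cells stably carrying the empty pcDNA vector (Control) or pcDNA with CypD (CypD OE), both kept at 1% oxygen, each for 24 h. CypD KO cells came from puromycin-selected clones made with CRISPR/Cas9. The Control and CypD OE cells were picked as resistant clones under the drug G418. How many clones were sequenced is not given in the sources used here. Because Control differs from WT in oxygen, vector, drug selection and choice of clone, these cannot be told apart in comparisons across the oxygen levels. Within an oxygen level, CypD KO cells were selected clones and WT cells are not described as such, and CypD OE and Control were picked as separate clones. The change in CypD therefore cannot be told apart from selection or choice of clone there either. Nothing in the labels or the methods says that the 2 libraries of a group came from separate cultures, so p-values measure only the spread between these libraries, which may be technical. In bulk RNA, fewer cells expressing a gene and less RNA per cell cannot be told apart.

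*Ppif* was read at 50.7 and 50.0 TPM (the relative abundance of its transcripts per length, on a scale of equal total in every library) in WT, 10.4 and 12.1 in CypD KO, 44.6 and 42.3 in Control and 50.3 and 49.3 in the libraries labelled CypD OE. Knockout therefore showed in the RNA (log2 fold change of TPM + 1 of -2.07 ± 0.07, limma adjusted p = 3.81e-06), whereas the CypD OE libraries exceeded Control by only 0.19 ± 0.07 (limma adjusted p = 0.0794). The paper checked overexpression in its stable clones at the protein level, by western blot. Whether the gene level counts transcripts from the introduced vector in full was not tested. The 7 melanocyte markers (*Mitf*, *Sox10*, *Pmel*, *Dct*, *Tyrp1*, *Tyr* and *Mlana*) each reached 1 TPM, with a summed level of 15665 to 15755 TPM in WT, 12433 to 12587 in CypD KO, 20446 to 20984 in Control and 13586 to 13758 in CypD OE. *Tyrp1*, *Dct* and *Pmel* carried these sums, and single markers differed from them. *Tyr* was at 37.4 and 41.3 TPM in WT and 167 and 147 in CypD KO. *Sox10* was highest in CypD OE (269 and 274) and *Mlana* was as high there (2034 and 2067) as in Control (1981 and 2023). The 5 fibroblast markers summed to 75.1 to 75.4 TPM in CypD KO and 10 to 24.3 elsewhere, with *Col1a1* and *Postn* leading in CypD KO and *Lum* at no more than 0.08. *Col1a2* was instead lower in CypD KO (1.09 and 2.17) than in WT (9.03 and 6.87) or Control (11.4 and 9.65). Leukocyte, keratinocyte and sperm cell markers reached at most 0.02 TPM, muscle and endothelial markers at most 1.18, and erythroid markers at most 0.35. The part of the shifts in melanocyte and fibroblast markers in the results was not tested. A single fragment on a transcript of 1000 effective bases was worth 0.0815 to 0.0975 TPM, and 17942 to 19692 genes were above 0 per library.

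The hypoxia-inducible factor HIF is known to drive many of these genes from promoter elements whose core reads ACGTG or GCGTG. Both cores were searched on both strands (as CACGT and CACGC on the other), in RefSeq windows that run from 250 bases before a gene's start to 50 after it, with overlapping matches of a core counted once. Of the 34 genes, 32 matched a window by symbol and 2 (*Slc2a3* and *Slc2a4*) did not. ACGTG lay in 20 of their 50 windows (40.0%) and in 19.6% of all 32851 windows, and GCGTG in 22 (44.0%) and 32.4%. A gene with several windows counts once for each of them, and the base composition of the windows was not compared. A match is a run of letters and not a binding site. The stretches before the start that lie outside annotated exons are printed for a transporter, both main hexokinases and 3 enzymes further down the path whose levels are described in the following paragraphs, 5′ to 3′ on the gene's strand, with matches in capitals (positions from the exact match of each stretch to GRCm39).

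Slc2a1 promoter (chr4:118965692-118965907, plus strand): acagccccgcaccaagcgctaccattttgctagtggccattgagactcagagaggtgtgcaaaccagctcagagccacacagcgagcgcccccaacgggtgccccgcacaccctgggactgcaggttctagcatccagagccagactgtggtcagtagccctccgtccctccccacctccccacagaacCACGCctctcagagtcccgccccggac

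Hk1 promoter (chr10:62215688-62215937, minus strand): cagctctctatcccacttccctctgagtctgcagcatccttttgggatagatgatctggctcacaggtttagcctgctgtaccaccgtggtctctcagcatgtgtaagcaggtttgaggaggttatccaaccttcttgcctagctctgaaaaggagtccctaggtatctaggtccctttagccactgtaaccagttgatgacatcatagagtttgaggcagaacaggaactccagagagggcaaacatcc

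Hk2 promoter (chr6:82751470-82751685, minus strand): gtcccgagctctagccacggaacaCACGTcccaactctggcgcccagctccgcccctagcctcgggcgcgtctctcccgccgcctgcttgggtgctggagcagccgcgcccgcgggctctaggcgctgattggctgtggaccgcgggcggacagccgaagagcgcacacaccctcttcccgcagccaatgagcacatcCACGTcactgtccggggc

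Gapdh promoter (chr6:125142737-125142986, minus strand): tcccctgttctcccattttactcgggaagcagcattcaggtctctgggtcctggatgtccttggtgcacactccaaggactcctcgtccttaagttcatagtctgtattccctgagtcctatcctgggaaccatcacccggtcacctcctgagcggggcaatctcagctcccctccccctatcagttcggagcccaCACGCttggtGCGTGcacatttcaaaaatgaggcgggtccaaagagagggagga

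Pgk1 promoter (chrX:105230456-105230705, plus strand): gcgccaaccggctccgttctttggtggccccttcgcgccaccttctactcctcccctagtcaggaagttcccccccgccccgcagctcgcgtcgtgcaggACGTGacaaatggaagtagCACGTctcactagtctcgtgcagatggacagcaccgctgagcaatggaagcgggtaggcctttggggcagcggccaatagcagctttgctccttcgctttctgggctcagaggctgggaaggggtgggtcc

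Eno2 promoter (chr6:124746637-124746825, minus strand): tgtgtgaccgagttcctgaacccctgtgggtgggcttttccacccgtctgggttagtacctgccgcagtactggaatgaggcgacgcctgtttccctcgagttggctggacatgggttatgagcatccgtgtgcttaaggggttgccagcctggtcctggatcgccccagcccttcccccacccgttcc

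The *Hk2* stretch held ACGTG 226 and 52 bases before the start and the *Pgk1* stretch 150 and 131 bases before it. The *Gapdh* stretch held GCGTG at 54 and 44 bases, and the *Slc2a1* stretch at 61 bases, with an ACGTG of the *Slc2a1* window reaching into the annotated exon and so left out. The *Gapdh* window held 1 ACGTG outside the printed stretch. The *Gapdh* stretch lies inside the annotated gene, between exons of its longer transcripts. The printed *Hk1* and *Eno2* stretches held neither core, and the other RefSeq window of *Hk1*, which lies in annotated exons and is not printed, held 2 of each. Other windows that are not printed differed too. Those of *Tpi1* and *Gpi1* held neither core, that of *Pfkp* held GCGTG, that of *Pgam1* both, and that of the nearly silent *Hk3* ACGTG. Whether the cores go with the levels or changes was not tested.

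Together the 34 genes made up 13005 and 12657 TPM in WT, 21722 and 21599 in CypD KO, 27593 and 28784 in Control and 10864 and 10856 in CypD OE, that is from 1.09% to 2.88% of all transcripts. The order of the groups was thus Control, CypD KO, WT and CypD OE, with no overlap between groups. *Gapdh* alone was 28.2% to 41.7% of these sums, and without it the sums kept the same order, at 8357 and 8143 TPM in WT, 14491 and 14338 in CypD KO, 19801 and 20641 in Control and 6356 and 6329 in CypD OE. Between 3 and 7 of the genes reached 1000 TPM in a library, with 7 in each CypD KO and Control library and 3 in each CypD OE library.

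**Figure D1:**
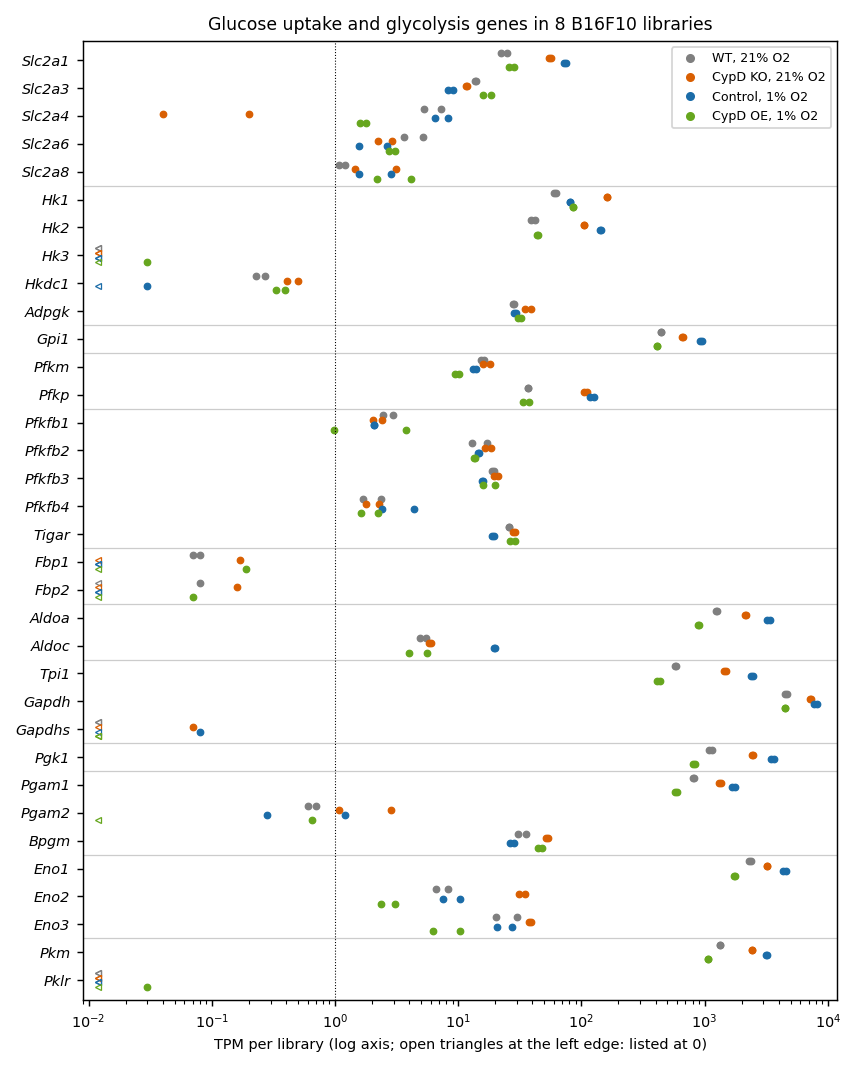
Level of each of the 34 genes in each of the 8 libraries, in TPM on a log axis, ordered by step of the pathway; each point is a library, colours mark the 4 groups and open triangles mark values listed at 0. The levels of *Aldoa*, *Tpi1*, *Pgk1* and *Pkm* run from CypD OE through WT and CypD KO to Control, while *Hk1*, *Eno2* and *Bpgm* are highest in CypD KO and *Slc2a3* in CypD OE.

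A gene was tested where 2 or more libraries held it at 1 TPM or above, which left 13526 genes, 28 of the 34 among them. *Hk3*, *Hkdc1*, *Fbp1*, *Fbp2*, *Gapdhs* and *Pklr* were not tested, and *Pgam2* reached 1 TPM in only 3 libraries. Of the 28, 15 were higher and 1 was lower in CypD KO than in WT, against 30.1% higher and 18.4% lower among all genes tested in the same limma fit. In CypD OE 3 were higher and 16 lower than in Control, where all genes gave 19% and 18.3%. Control had 13 higher and 3 lower than WT (12.1% and 12.1% of all genes), and CypD OE had 2 higher and 11 lower than WT (14% and 13.7%). The median log2 fold change over the 28 was 0.59 in CypD KO minus WT (0.089 over all genes), -1.01 in CypD OE minus Control (0.002), 0.45 in Control minus WT (0.012) and -0.12 in CypD OE minus WT (0.006). CypD KO minus WT and Control minus WT share the WT libraries, and CypD OE minus Control and Control minus WT share the Control libraries, so their values stand side by side here and are not independent.

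**Figure D2:**
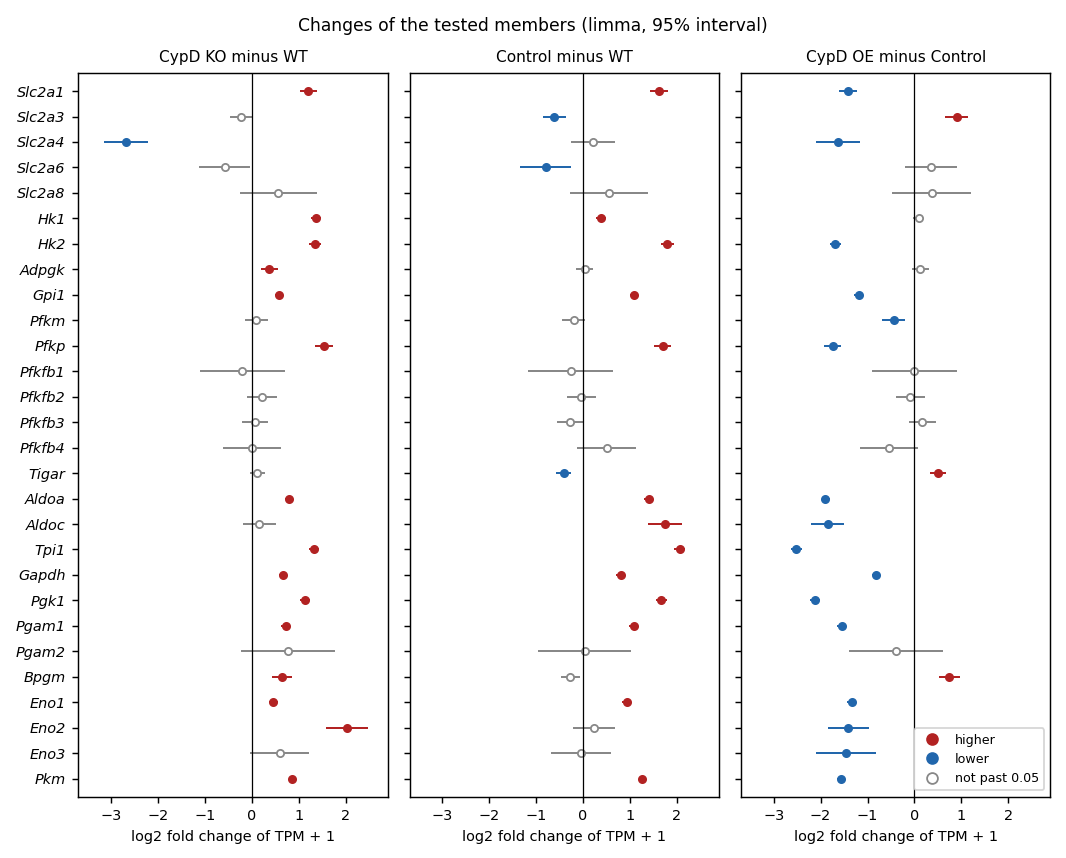
Log2 fold change of TPM + 1 for the 28 tested genes in 3 comparisons, from limma over all 8 libraries; points are estimates, bars their 95% intervals, filled red and blue points passed an adjusted p of 0.05 as higher and lower, and open points did not. Changes in CypD KO minus WT run from -2.69 for *Slc2a4* to 2.03 for *Eno2*, and in CypD OE minus Control from -2.52 for *Tpi1* to 0.90 for *Slc2a3*.

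*Slc2a1* (ENSMUSG00000028645, GRCm39 chr4:118965908-118996365) encodes GLUT1, known as the transporter of basal uptake, and had the highest level of the 5 transporters in every library. It was at 22.1 and 25.0 TPM in WT, 54.9 and 56.2 in CypD KO, 75.6 and 72.4 in Control and 28.3 and 26.0 in CypD OE. All libraries of CypD KO and Control lay above all libraries of the other groups. *Slc2a1* rose 2.36-fold in CypD KO over WT (1.21 ± 0.07, adjusted p = 2.97e-05) and 3.14-fold in Control over WT (1.61 ± 0.07, adjusted p = 3.67e-05). In CypD OE it was 2.73-fold lower than in Control (-1.42 ± 0.07, adjusted p = 2.7e-05), with a difference from WT of 0.20 ± 0.07 that did not pass the test (adjusted p = 0.0857) but passed without WT replicate 2 (0.28, adjusted p = 0.0469).

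*Slc2a3*, which encodes the high-affinity GLUT3 known from neurons, ran the other way. Its levels were 13.9 and 13.7 TPM in WT, 11.8 and 11.5 in CypD KO, 8.33 and 9.10 in Control and 18.6 and 15.8 in CypD OE. The 4 groups did not overlap, and Control, the highest group for *Slc2a1*, was the lowest for *Slc2a3*. It fell in Control against WT (-0.61 ± 0.09, adjusted p = 0.00525) and was 1.97-fold higher in CypD OE than in Control (0.90 ± 0.09, adjusted p = 0.000535). It differed by 0.30 ± 0.09 in CypD OE minus WT, which missed the threshold (adjusted p = 0.059) and passed it with a filter of 5 TPM (adjusted p = 0.0487). In CypD KO minus WT its difference of -0.22 ± 0.09 missed the threshold (adjusted p = 0.0944), which it passed after rescaling of the libraries (adjusted p = 0.0199). The *Slc2a1* to *Slc2a3* ratio of TPM was 1.59 and 1.82 in WT, 4.65 and 4.88 in CypD KO, 9.07 and 7.95 in Control and 1.52 and 1.64 in CypD OE.

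*Slc2a4* encodes GLUT4, the insulin-responsive transporter of muscle and fat (ENSMUSG00000018566, chr11:69831006-69839070). It was at 5.27 and 7.29 TPM in WT and 6.49 and 8.24 in Control, at 1.59 and 1.78 in CypD OE, and at 0.04 and 0.20 in CypD KO, where these values correspond to approximately 1.1 and 5.1 fragments. WT and Control overlapped, and both stood apart from CypD OE and CypD KO. The fall was -2.69 ± 0.19 in CypD KO minus WT (adjusted p = 5.95e-05) and -1.63 ± 0.19 in CypD OE minus Control (adjusted p = 0.000844). On this scale of TPM + 1 the change of a low gene is understated, and with 0.1 TPM added in place of 1 the CypD KO value was -4.94. *Slc2a4* was thus lower in both CypD KO and CypD OE than in the group each was set against, whereas *Slc2a1* was higher in the one and lower in the other.

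The other transporters were low. *Slc2a6* (GLUT6, a lysosomal transporter) was at 5.14 and 3.61 TPM in WT and between 1.58 and 3.05 in the other groups, and *Slc2a8* (GLUT8, an intracellular transporter) between 1.07 and 4.14 in all libraries. *Slc2a6* was lower in Control than in WT (-0.80 ± 0.22, adjusted p = 0.0415), a call lost in 7 of the 10 alternative fits in which it was tested (adjusted p from 0.0371 to 0.179), among them those without Control replicate 1 (-0.56), WT replicate 1 (-0.59) and WT replicate 2 (-1.01). In CypD KO it missed the threshold (-0.58 ± 0.22, adjusted p = 0.0698) and passed it after rescaling (adjusted p = 0.0434). *Slc2a8* passed in none of the 4 comparisons, with adjusted p from 0.0885 to 0.445. As shares of the summed TPM of the 5 transporters, *Slc2a1* held 46.6% and 49.2% in WT and 52.7% and 51.5% in CypD OE, but 76.1% and 77.8% in CypD KO and 80.8% and 76.0% in Control. *Slc2a5*, which encodes the fructose transporter GLUT5 and is not among the 5, was at 30.4 and 29.0 TPM in WT and 34.5 and 29.3 in CypD OE, above *Slc2a1* in both groups. It was at 38.7 and 39.2 in CypD KO and 35.6 and 37.0 in Control, below it.

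Hexokinases phosphorylate glucose and thereby hold it in the cell. *Hk1* (ENSMUSG00000037012, chr10:62104621-62215687) encodes the isoform of most tissues and *Hk2* (ENSMUSG00000000628, chr6:82699740-82751469) the isoform of muscle, fat and many tumours, and both can bind the outer mitochondrial membrane. *Hk1* was at 62.8 and 60.4 TPM in WT, 160.1 and 161 in CypD KO, 80.9 and 80.8 in Control and 85.8 and 86.1 in CypD OE. *Hk2* was at 39.0 and 41.8 TPM in WT, 105 and 104 in CypD KO, 143 and 143 in Control and 43.4 and 44.1 in CypD OE. The groups did not overlap for either gene, but *Hk1* was highest in CypD KO and *Hk2* in Control.

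Both hexokinases rose in CypD KO over WT, *Hk1* 2.61-fold (1.37 ± 0.04, adjusted p = 1.17e-06) and *Hk2* 2.59-fold (1.35 ± 0.04, adjusted p = 2.99e-06). Control differed from WT by 1.31-fold for *Hk1* (0.39 ± 0.04, adjusted p = 0.000612) and 3.54-fold for *Hk2* (1.80 ± 0.04, adjusted p = 2.56e-06). In CypD OE *Hk2* was 3.27-fold lower than in Control (-1.69 ± 0.04, adjusted p = 1.52e-06), whereas *Hk1* differed by 0.09 ± 0.04 (95% interval 0.00 to 0.17, adjusted p = 0.0984). The *Hk2* to *Hk1* ratio of TPM was therefore 0.62 and 0.692 in WT, 0.654 and 0.646 in CypD KO, 0.506 and 0.513 in CypD OE and 1.77 in each Control library. *Hk1* was the larger hexokinase in 6 libraries, with 59.0% to 66.2% of the family, and the smaller one in both Control libraries, with 36.1%.

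*Hk3*, the isoform of white blood cells, was listed at 0 in 7 libraries and at 0.03 TPM, or about 1.1 fragments, in CypD OE replicate 2. *Hkdc1*, a hexokinase domain protein encoded next to *Hk1*, stayed at 0.50 TPM or less, at most 8.0 fragments. *Adpgk* encodes an ADP-dependent glucokinase of the endoplasmic reticulum. It was at 28.1 and 28.5 TPM in WT, 39.2 and 34.7 in CypD KO, 29.4 and 28.6 in Control and 32.5 and 30.8 in CypD OE, and rose in CypD KO alone of the 3 other groups when set against WT (0.37 ± 0.07, adjusted p = 0.00419); the differences of Control and CypD OE from WT were 0.03 ± 0.07 and 0.16 ± 0.07.

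**Figure D3:**
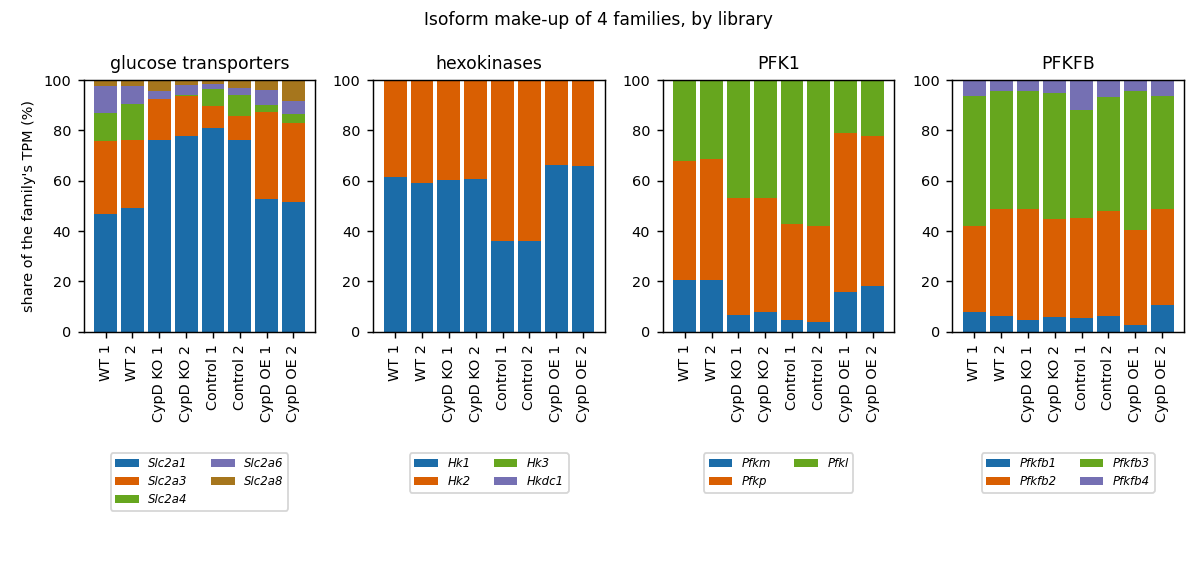
Share of each isoform in the summed TPM of its family, in percent, for glucose transporters, hexokinases, PFK1 and PFKFB in each of the 8 libraries. The *Hk2* share exceeds that of *Hk1* only in the Control libraries, the *Slc2a1* share is 76.0% or more in CypD KO and Control and 52.7% or less in WT and CypD OE, and the PFKFB bars show *Pfkfb2* and *Pfkfb3* as the main isoforms in every library.

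Glucose phosphate isomerase, the product of *Gpi1*, makes fructose phosphate. *Gpi1* was at 446 and 442 TPM in WT, 671 and 660.5 in CypD KO, 924 and 955 in Control and 409 and 411 in CypD OE. The groups did not overlap, and Control was 2.12-fold over WT while CypD KO was 1.5-fold over it (1.08 ± 0.03 and 0.58 ± 0.03, adjusted p = 2.48e-06 and 9.29e-06). CypD OE was 2.29-fold below Control (-1.19 ± 0.03, adjusted p = 8.85e-07). Its small difference from WT (-0.12 ± 0.03, adjusted p = 0.0182) lost the call when any of the 4 libraries was left out, with adjusted p from 0.0585 without WT replicate 2 to 0.0854 without WT replicate 1.

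Phosphofructokinase (PFK1) catalyses the committed step and has 3 isoforms named for muscle, platelet and liver. *Pfkp*, the platelet type (ENSMUSG00000021196, chr13:6629798-6698970), was at 36.9 and 36.6 TPM in WT, 112 and 106 in CypD KO, 117 and 126 in Control and 37.8 and 33.4 in CypD OE. *Pfkm*, the muscle type, was at 16.1 and 15.4 TPM in WT, 15.8 and 18.3 in CypD KO, 14.0 and 13.2 in Control and 9.39 and 10.1 in CypD OE. *Pfkp* stood apart in CypD KO and Control. *Pfkm* was lowest in CypD OE and next lowest in Control, each without overlap with another group, while WT and CypD KO overlapped.

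*Pfkp* rose 2.96-fold in CypD KO over WT (1.54 ± 0.07, adjusted p = 9.49e-06) and 3.30-fold in Control over WT (1.70 ± 0.07, adjusted p = 2.53e-05), and was 3.41-fold lower in CypD OE than in Control (-1.74 ± 0.07, adjusted p = 8.98e-06). *Pfkm* differed from WT by 0.10 ± 0.09 in CypD KO (adjusted p = 0.395) and -0.20 ± 0.09 in Control (adjusted p = 0.167), neither past the threshold. It was lower in CypD OE than in Control (-0.44 ± 0.09, adjusted p = 0.0095), but not without Control replicate 1 (adjusted p = 0.0527) or CypD OE replicate 1 (adjusted p = 0.0555), and lower than in WT (-0.64 ± 0.09, adjusted p = 0.00313). The liver type *Pfkl*, described here only as the remaining isoform, was at 25.3 and 23.6 TPM in WT, 113 and 109 in CypD KO, 175 and 193 in Control and 12.6 and 12.4 in CypD OE. It took 57.3% and 58.2% of PFK1 transcripts in Control and 21.0% and 22.1% in CypD OE, where *Pfkp* took 63.3% and 59.8%.

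The 4 *Pfkfb* genes encode bifunctional enzymes that make and break the activator of PFK1. This activator is a fructose bisphosphate other than the one that PFK1 makes and aldolase splits. *Pfkfb3*, whose product mostly makes the activator, was at 15.5 to 21.0 TPM in all libraries, *Pfkfb2* at 13.0 to 18.4, *Pfkfb1* at 0.99 to 3.78 and *Pfkfb4* at 1.63 to 4.35. None of the 4 passed the test in the comparison of CypD KO with WT, of CypD OE with Control, or of either 1% oxygen group with WT. For *Pfkfb3* the differences were 0.07 ± 0.11 in CypD KO minus WT, -0.27 ± 0.11 in Control minus WT and 0.17 ± 0.11 in CypD OE minus Control, with 95% intervals of -0.19 to 0.33, -0.53 to -0.02 and -0.09 to 0.43. *Pfkfb4* was highest in the Control libraries (4.35 and 2.40 TPM), which differed from each other more than the groups did, and its difference from WT was 0.50 ± 0.25 (adjusted p = 0.197). Leaving out a library brought single calls: *Pfkfb2* in CypD KO minus WT without WT replicate 2 (0.39, adjusted p = 0.0244), *Pfkfb3* in CypD OE minus Control without CypD OE replicate 2 (0.33, adjusted p = 0.0386), *Pfkfb4* there without Control replicate 2 (-0.88, adjusted p = 0.0419) and *Pfkfb1* in CypD OE minus WT without CypD OE replicate 2 (-0.89, adjusted p = 0.0294). The summed PFKFB level was 34.4 to 42.1 TPM, a narrow range beside that of PFK1, 55.9 to 333 TPM.

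*Tigar* encodes a phosphatase that lowers the same activator. Its levels were 25.8 and 26.0 TPM in WT, 27.6 and 29.0 in CypD KO, 19.4 and 19.0 in Control and 28.7 and 26.5 in CypD OE, so that Control alone stood below. It was lower in Control than in WT (-0.41 ± 0.06, adjusted p = 0.00433) and 1.44-fold higher in CypD OE than in Control (0.50 ± 0.06, adjusted p = 0.00108). *Fbp1* and *Fbp2*, the fructose bisphosphatases of gluconeogenesis, were at or below 0.19 TPM in every library, at most 2.8 and 2.6 fragments, which allows no comparison.

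Aldolase splits fructose bisphosphate. *Aldoa* (ENSMUSG00000030695, chr7:126393822-126399923) was at 1266 and 1243 TPM in WT, 2182 and 2148 in CypD KO, 3235 and 3388 in Control and 885 and 893 in CypD OE. *Aldoc*, the brain type, was at 5.48 and 4.86 TPM in WT, 5.78 and 6.04 in CypD KO, 19.5 and 19.9 in Control and 3.99 and 5.56 in CypD OE. The groups did not overlap for *Aldoa*, whereas for *Aldoc* Control alone stood apart and the 6 other libraries lay between 3.99 and 6.04 TPM.

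*Aldoa* rose 1.73-fold in CypD KO over WT (0.79 ± 0.03, adjusted p = 3.87e-06) and 2.64-fold in Control over WT (1.40 ± 0.03, adjusted p = 2.31e-06). *Aldoc* rose 3.80-fold in Control over WT (1.75 ± 0.14, adjusted p = 0.000411), while in CypD KO its difference was 0.16 ± 0.14 (95% interval -0.17 to 0.50, adjusted p = 0.375). Both fell in CypD OE against Control, *Aldoa* 3.73-fold (-1.90 ± 0.03, adjusted p = 3.84e-07) and *Aldoc* 4.12-fold (-1.85 ± 0.14, adjusted p = 0.000137). *Aldoa* made up at least 99.4% of aldolase transcripts in every library. The further *Aldoa* row (ENSMUSG00000114515), which shares 2320 exon bases with the main gene, held 0.18 to 0.95 TPM.

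Triose phosphate isomerase, from *Tpi1* (ENSMUSG00000023456, chr6:124787549-124791273), interconverts the products of aldolase. It had the largest fall of the 28 tested genes in CypD OE minus Control, with levels of 581 and 575 TPM in WT, 1492 and 1426 in CypD KO, 2367 and 2463 in Control and 409 and 431 in CypD OE. The groups did not overlap. It was 5.75-fold lower in CypD OE than in Control (-2.52 ± 0.04, adjusted p = 3.84e-07), 4.18-fold higher in Control than in WT (2.06 ± 0.04, adjusted p = 2.24e-06) and 2.52-fold higher in CypD KO than in WT (1.33 ± 0.04, adjusted p = 1.61e-06). CypD OE was also below WT (-0.46 ± 0.04, adjusted p = 0.000398).

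*Gapdh*, the dehydrogenase that follows and a common reference gene, was the most abundant of the 34 transcripts in every library. It was at 4648 and 4515 TPM in WT, 7232 and 7261 in CypD KO, 7792 and 8143 in Control and 4508 and 4527 in CypD OE. WT and CypD OE overlapped and the other groups stood above them. Its changes were smaller than those of *Tpi1*, at 0.66 ± 0.03 in CypD KO minus WT (adjusted p = 6.41e-06), 0.80 ± 0.03 in Control minus WT (adjusted p = 1.07e-05) and -0.82 ± 0.03 in CypD OE minus Control (adjusted p = 3.66e-06). CypD OE and WT differed by -0.02 ± 0.03 (95% interval -0.08 to 0.04, adjusted p = 0.627). The *Gapdh* to *Tpi1* ratio of TPM thus ran from 3.29 and 3.31 in Control through 4.85 and 5.09 in CypD KO and 8.0 and 7.85 in WT to 11 and 10.5 in CypD OE. *Gapdhs*, the sperm isoform, was listed at 0 in 6 libraries and at 0.08 TPM or less in the others, about 1.0 fragment at most.

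*Pgk1* (ENSMUSG00000062070, chrX:105230706-105247305) encodes phosphoglycerate kinase, which makes the first ATP of the pathway. It was at 1154 and 1095 TPM in WT, 2468 and 2444 in CypD KO, 3483 and 3695 in Control and 834 and 810.4 in CypD OE, with no overlap of groups. It rose 2.18-fold in CypD KO (1.13 ± 0.04, adjusted p = 3.17e-06) and 3.19-fold in Control over WT (1.67 ± 0.04, adjusted p = 2.31e-06), and CypD OE was 4.36-fold below Control (-2.12 ± 0.04, adjusted p = 4.57e-07) and below WT (-0.45 ± 0.04, adjusted p = 0.000433).

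Phosphoglycerate mutase is encoded by *Pgam1* in most tissues and *Pgam2* in muscle, and *Bpgm* encodes the related mutase that makes the bisphosphoglycerate known from red cells. *Pgam1* was at 819 and 801 TPM in WT, 1351 and 1320.3 in CypD KO, 1676 and 1761 in Control and 592 and 579 in CypD OE. *Bpgm* was at 35.5 and 30.9 TPM in WT, 51.8 and 53.3 in CypD KO, 26.2 and 28.4 in Control and 44.8 and 48.0 in CypD OE. Control was the highest group for *Pgam1* and the lowest for *Bpgm*, with no overlap of groups for either gene.

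*Pgam1* rose in CypD KO over WT (0.72 ± 0.03, adjusted p = 8.63e-06) and in Control over WT (1.08 ± 0.03, adjusted p = 5.47e-06) and fell in CypD OE against Control (-1.55 ± 0.03, adjusted p = 7.94e-07). *Bpgm* rose 1.58-fold in CypD KO over WT (0.65 ± 0.08, adjusted p = 0.000676) and 1.70-fold in CypD OE over Control (0.74 ± 0.08, adjusted p = 0.000599), and was higher in CypD OE than in WT (0.47 ± 0.08, adjusted p = 0.00597). Its difference of -0.27 ± 0.08 in Control minus WT missed the threshold (adjusted p = 0.0513) and passed it after rescaling (adjusted p = 0.043), with a filter of 5 TPM (adjusted p = 0.0402) and without WT replicate 2 (adjusted p = 0.0338). The *Pgam1* to *Bpgm* ratio of TPM was 64.1 and 62.0 in Control and 13.2 and 12.1 in CypD OE. *Pgam2* lay between 0 and 2.85 TPM, at most 21.4 fragments, with adjusted p from 0.163 to 0.974 in the same 4 comparisons. It shares 989 exon bases with *Dbnl* on the other strand (103 to 168 TPM), and whether the counting used strand is not given in the sources used here.

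Enolase makes phosphoenolpyruvate. *Eno1*, the common isoform, was at 2382 and 2281 TPM in WT, 3207 and 3186 in CypD KO, 4329 and 4550.4 in Control and 1771 and 1749 in CypD OE. *Eno2*, the neuronal isoform (ENSMUSG00000004267, chr6:124736247-124746636), was at 8.23 and 6.59 TPM in WT, 31.4 and 34.9 in CypD KO, 7.53 and 10.3 in Control and 2.35 and 3.06 in CypD OE. *Eno3*, the muscle isoform, was at 30.0 and 20.4 TPM in WT, 37.2 and 38.8 in CypD KO, 20.9 and 27.4 in Control and 10.4 and 6.26 in CypD OE. For *Eno2* and *Eno3* WT and Control overlapped, CypD KO lay above and CypD OE below.

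*Eno2* had the largest rise of the 28 tested genes in CypD KO minus WT, 4.48-fold (2.03 ± 0.18, adjusted p = 0.000142), while in Control minus WT it differed by 0.23 ± 0.18 (95% interval -0.19 to 0.65, adjusted p = 0.39). *Eno1* rose in both, by 0.46 ± 0.03 (adjusted p = 5.92e-05) and 0.93 ± 0.03 (adjusted p = 1.17e-05). The difference of *Eno3* in CypD KO minus WT missed the threshold (0.60 ± 0.26, adjusted p = 0.0981). All 3 fell in CypD OE against Control, *Eno1* by -1.33 ± 0.03 (adjusted p = 1.21e-06), *Eno2* by -1.41 ± 0.18 (adjusted p = 0.00115) and *Eno3* by -1.45 ± 0.26 (adjusted p = 0.00506), and all 3 were lower in CypD OE than in WT (adjusted p from 0.000372 to 0.00637). *Eno1* remained at least 97.7% of enolase transcripts in every library, and *Eno2* was 0.960% and 1.07% in CypD KO and at most 0.340% elsewhere.

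*Pkm* (ENSMUSG00000032294, chr9:59563364-59586663) encodes both muscle-type pyruvate kinases through alternative exons, which gene levels do not separate. It was at 1334 and 1342 TPM in WT, 2419 and 2448 in CypD KO, 3179 and 3203 in Control and 1066 and 1075 in CypD OE, without overlap of groups. It rose 1.82-fold in CypD KO (0.86 ± 0.02, adjusted p = 1.14e-06) and 2.38-fold in Control over WT (1.25 ± 0.02, adjusted p = 1.68e-06), and was 2.98-fold lower in CypD OE than in Control (-1.57 ± 0.02, adjusted p = 3.59e-07). *Pklr*, the isoform of liver and red cells, was listed at 0 in 7 libraries and at 0.03 TPM in CypD OE replicate 1.

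Whether the knockout at 21% oxygen and the vector cells at 1% oxygen differed from each other was tested as CypD KO minus Control, a contrast added after the values had been seen, in which oxygen, vector, knockout and selection cannot be told apart. Of the 28 tested genes 8 (28.6%) were higher and 12 (42.9%) lower in CypD KO than in Control, against 27.4% and 16.5% of all genes. The share higher was thus near that of all genes. The median was -0.06 (0.069 over all genes). The 8 higher fell to 5 without Control replicate 1 or CypD KO replicate 2, where *Slc2a3*, *Pfkm* and *Pfkfb3* lost the call. Among those higher in CypD KO were *Hk1* (0.98 ± 0.04, adjusted p = 4.67e-06), *Eno2* (1.80 ± 0.18, adjusted p = 0.000284), *Bpgm* (0.92 ± 0.08, adjusted p = 0.000161) and *Tigar* (0.54 ± 0.06, adjusted p = 0.000565). *Slc2a3* was also higher (0.38 ± 0.09, adjusted p = 0.0159), but lost the call in 3 of 11 alternatives (adjusted p from 0.0129 to 0.0804). *Adpgk* (0.34 ± 0.07, adjusted p = 0.0072) kept it in all 11. *Pfkm* (0.30 ± 0.09, adjusted p = 0.0354) and *Pfkfb3* (0.34 ± 0.11, adjusted p = 0.0388) each lost it in 7 of 11, with adjusted p up to 0.177 and 0.164.

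Lower in CypD KO than in Control were *Slc2a4* (-2.90 ± 0.19, adjusted p = 5.04e-05), *Aldoc* (-1.58 ± 0.14, adjusted p = 0.000181) and the abundant enzymes *Tpi1* (-0.73 ± 0.04), *Aldoa* (-0.61 ± 0.03), *Pgk1* (-0.55 ± 0.04), *Gpi1* (-0.50 ± 0.03), *Eno1* (-0.47 ± 0.03), *Pkm* (-0.39 ± 0.02), *Pgam1* (-0.36 ± 0.03) and *Gapdh* (-0.14 ± 0.03), with *Slc2a1* (-0.41 ± 0.07) and *Hk2* (-0.45 ± 0.04). The difference of *Gapdh* lost the call without a filter on low genes (adjusted p = 0.0654) and in eBayes without trend (adjusted p = 0.0726). *Pfkp* did not pass the threshold (-0.15 ± 0.07, 95% interval -0.32 to 0.01, adjusted p = 0.12) except after rescaling (-0.25, adjusted p = 0.0167). CypD KO thus differed from Control in isoform make-up as well as in level, with more *Hk1* and *Eno2* and less *Hk2* and *Aldoc*.

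**Figure D4:**
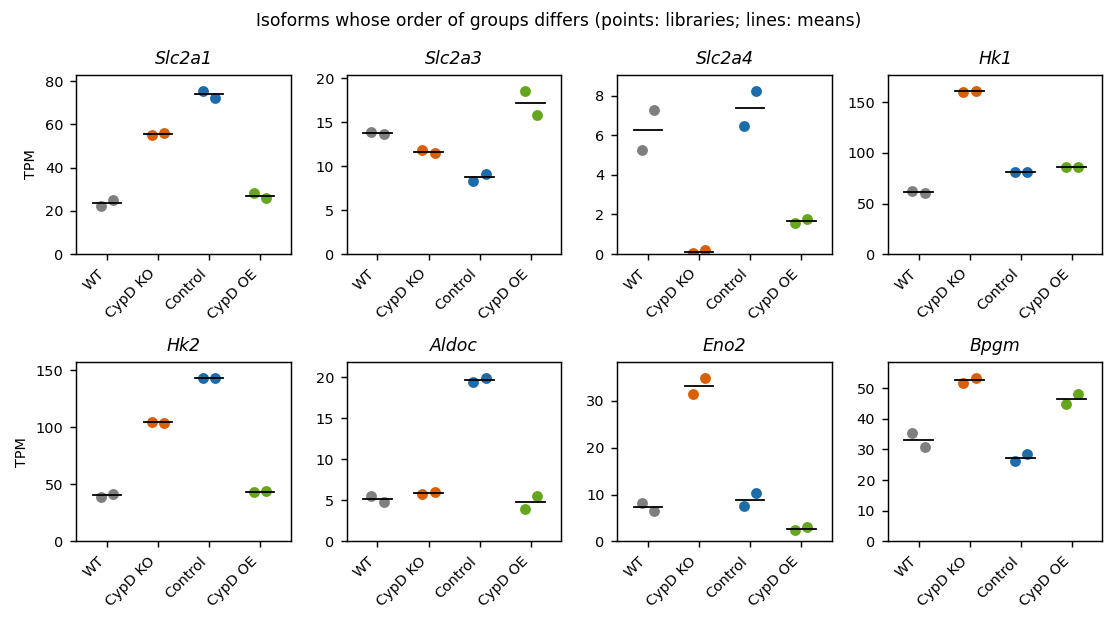
Level in TPM of 8 isoforms in the 4 groups; points are the 2 libraries of a group, lines their mean, and each panel starts at 0 with its own scale. *Slc2a1* and *Hk2* are highest in Control and next highest in CypD KO, *Aldoc* is raised in Control alone, *Hk1*, *Eno2* and *Bpgm* are highest in CypD KO, *Slc2a3* is lowest in Control and *Slc2a4* is near 0 in CypD KO.

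The paths that leave glycolysis or follow it were read from 5 lists of 40 other genes, 28 of them tested, and the 2 genes named from each list are those with the largest change in CypD KO minus WT or CypD OE minus Control. Over all lists 13 genes (46.4%) were higher and 6 (21.4%) lower in CypD KO minus WT, against 30.1% and 18.4% of all genes tested, at a median change of 0.19 (log2; 0.089 over all genes). In CypD OE minus Control 11 (39.3%) were higher and 7 (25%) lower, against 19% and 18.3%, with a median of 0.10 (0.002 over all genes). In Control minus WT 7 (25%) were higher and 9 (32.1%) lower, against 12.1% and 12.1%, with a median of -0.11 (0.012 over all genes). The 7 fell to between 2 and 4 when any of the 4 libraries was left out. In CypD OE minus Control the 7 lower fell to 4 without Control replicate 2 or CypD OE replicate 2.

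Among the lactate genes, *Ldha*, which makes lactate from pyruvate, was at 1277 and 1236 TPM in WT, 2215 and 2167 in CypD KO, 3706 and 3853 in Control and 948 and 895 in CypD OE. *Slc16a3*, which encodes the lactate exporter MCT4, was at 7.89 and 7.90 TPM in WT, 27.5 and 30.2 in CypD KO, 177 and 197 in Control and 0.42 and 1.36 in CypD OE. Both rose in CypD KO over WT (0.80 ± 0.04 and 1.74 ± 0.21) and fell in CypD OE against Control (-2.04 ± 0.04 and -6.68 ± 0.21), each with an adjusted p of 0.000676 or less. Of the 4 lactate genes tested, 3 were higher in CypD KO minus WT (30.1% of all genes), and 1 was higher and 2 lower in CypD OE minus Control (19% and 18.3% of all genes).

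Of the 8 pentose phosphate genes tested, 3 (37.5%) were higher and 2 (25%) lower in CypD KO minus WT, near the 30.1% and 18.4% of all genes. In CypD OE minus Control 5 were higher and 2 lower (19% and 18.3% of all genes), and in Control minus WT 1 was higher and 4 lower (12.1% and 12.1%). *G6pdx*, the entry enzyme of the path, was at 99.1 and 99.9 TPM in WT, 92.8 and 91.6 in CypD KO, 62.8 and 69.1 in Control and 110.4 and 110.2 in CypD OE, lower in Control than in WT (-0.59 ± 0.05, adjusted p = 0.00046) and higher in CypD OE than in Control (0.74 ± 0.05, adjusted p = 8.21e-05). *Pgls*, the lactonase that follows, rose in CypD KO over WT (0.51 ± 0.08, adjusted p = 0.00186) and in CypD OE over Control (0.89 ± 0.08, adjusted p = 0.000262).

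Of the 5 hexosamine genes tested, 2 (40%) were higher and 1 (20%) lower in CypD KO minus WT, near the 30.1% and 18.4% of all genes, and 3 were lower in CypD OE minus Control (18.3% of all genes). *Gfpt2*, a rate-limiting enzyme of that path, was at 4.34 and 4.34 TPM in WT and 0.66 and 1.1 in CypD KO (-1.52 ± 0.17, adjusted p = 0.000411), and *Uap1* rose in CypD KO (0.45 ± 0.05, adjusted p = 0.000637) and fell in CypD OE against Control (-0.48 ± 0.05, adjusted p = 0.000755). Of the 6 serine and glycerol genes tested, 3 were lower in CypD KO minus WT (18.4% of all genes), *Gpd1l* among them (-0.84 ± 0.11, adjusted p = 0.00088), and 3 were higher in CypD OE minus Control (19% of all genes), among them *Psph*, the last enzyme of serine synthesis (0.81 ± 0.10, adjusted p = 0.000988). Of the 15 genes of other glucose entry and gluconeogenesis 5 were tested, all 5 higher in CypD KO minus WT (30.1% of all genes), and 2 were higher in CypD OE minus Control (19% of all genes). *Slc2a9*, known as a urate transporter, was at 1.12 and 1.35 TPM in WT, 2.97 and 2.92 in CypD KO, 0.36 and 0.25 in Control and 1.72 and 1.65 in CypD OE. *G6pc3*, a glucose phosphatase, rose in CypD KO (0.71 ± 0.10, adjusted p = 0.0012).

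RSEM divides reads that match several genes, so annotated copies of the members were read beside them. They were picked by symbol, as a member symbol followed by a dash or as a few named retrocopies such as *Eno1b*. Copies under other names were not searched, and sequence identity was not measured. Of 13 such copies in the table, 5 exceeded 1 TPM in some library and 4 were listed at 0 in all. *Eno1b*, an intronless copy of *Eno1*, held 21.3 to 57.9 TPM, *Pgam1-ps2* 9.01 to 30.7 TPM and *Gapdh-ps16* 1.01 to 3.0 TPM, each small beside its parent gene. *Pgk1-rs7* was at 20.8 TPM in Control replicate 1 and at 0 in the 7 other libraries, small beside the *Pgk1* level there. Among overlapping genes, *Pfkp* shares 1831 exon bases with *Pitrm1* on the other strand (74.5 to 108 TPM), *Pfkfb2* 1839 with *Yod1* (9.43 to 14.5 TPM) and *Pkm* 3157 with the same-strand model *Gm49759* (23.1 to 55.0 TPM). On the other strand, *Pfkm* shares 391 with *Senp1* (32.4 to 44.7 TPM) and *Eno3* 1020 with *Gm12319* (0.59 to 4.11 TPM). What reads passed between any of these genes was not tested.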

How the data were processed

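Total RNA libraries made with ribosomal RNA depletion were sequenced by the authors as paired reads on a NovaSeq instrument. Per the labels and the methods, reads were trimmed with Cutadapt 3.4, aligned to Ensembl GRCm39 with STAR 2.7.8a and summarised per gene with RSEM 1.3.1. The labels and the methods name different RNA extraction kits, and the strand setting is not given in the sources used here. The deposited values are TPM, which has the same sum in every library, so abundant transcripts that rise lower the rest. The authors tested read counts with DESeq2 1.26.0, and counts were not used here. All columns had a sample. Depth was read from the steps between low TPM values. In each library 83.6% to 86.6% of them came within 0.15 of being whole fragments. The fragment length and step size were chosen per library to make this share as large as possible. Values without steps would give 30% at a fixed step size, and their share after such a choice was not determined. Fragment numbers printed for low genes are such estimates.

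A gene entered the tests if 2 or more libraries held it at 1 TPM or above (13526 genes). The scale was log2(TPM + 1) and the tool limma 3.58.1 under R 4.3.3 (lmFit, eBayes with trend), with a mean for each of the 4 groups, two-sided, Benjamini-Hochberg adjusted over all genes tested, threshold 0.05. An exact permutation test of 2 libraries against 2 cannot go below 0.333 and was not used. Values after ± are standard errors of log2 fold changes, fold changes without ± are ratios of mean TPM, and n = 2 per group. The script was tested on simulated data, in which 200 of 13526 genes were shifted by 1 log2 unit in CypD KO. It recovered 77.5% of them in CypD KO minus WT, with 10 false calls. A gene that missed the threshold may still differ. The library without a suffix in its name was taken as replicate 1. Gene positions are from GENCODE vM39 on GRCm39, and promoter windows from RefSeq on GRCm38.p6, each printed stretch matched exactly once on its GRCm39 chromosome. The 34 genes, the branch and marker lists and the genes named from them were chosen with earlier results of these data known: all 34 genes are described, and from each branch list the 2 tested genes with the largest absolute change in CypD KO minus WT or CypD OE minus Control are named.

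Alternatives were 0.1 TPM added in place of 1, no filter on low genes, a minimum of 5 TPM, rescaling by median-of-ratios size factors, a fit of only the 4 libraries compared, eBayes without trend, the replicate number as a block, and leaving out each library in turn. CypD KO minus Control was added after the data had been seen.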

Additional observations from a re-analysis of the deposited data

How the results depend on the processing

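Of the values of genes past the threshold, 890 kept their direction and call under the alternatives run, 33 lost the call and 0 changed sign. The 33 were 7 for *Slc2a6* in Control minus WT, 5 for *Gpi1* in CypD OE minus WT, 2 for *Pfkm* in CypD OE minus Control and, in CypD KO minus Control, 7 each for *Pfkm* and *Pfkfb3*, 3 for *Slc2a3* and 2 for *Gapdh*. After median-of-ratios rescaling 3 of the 28 genes were lower in CypD KO minus WT in place of 1, with *Slc2a3* and *Slc2a6* added, and rescaling moved the median of all genes in that comparison from 0.0891 to -0.00743. The branch genes higher in Control minus WT, 7 in all, were 3 in the fit of the 4 libraries, 4 in eBayes without trend, 4 without a filter and 2 to 4 when a library was left out. The branch genes lower in CypD OE minus Control were 4 to 5 when a library was left out in place of 7, and the members higher in CypD KO minus Control 5 to 6 in place of 8, fits in which the lone library of an arm is assumed to vary like the other groups. In these cases the cause was not tested. The filter of 5 TPM gave no value for genes it removed.

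With the replicate number as a block, 15 of the 28 genes were higher in CypD KO minus WT and 16 lower in CypD OE minus Control, as without it, while the branch genes higher in Control minus WT fell from 7 to 3 and *Slc2a6* in Control minus WT (adjusted p = 0.0647) and *Pfkm* in CypD KO minus Control (adjusted p = 0.0527) were no longer called. Libraries with the same number deviated together with correlations of 0.108 in CypD KO and WT, -0.00175 in CypD OE and Control, -0.0186 in Control and WT, -0.00932 in CypD OE and WT and -0.0295 in CypD KO and Control. These values cannot show whether libraries with the same number share more than that number.

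Signs turned only in log2 fold changes that had not passed the test. Rescaling gave -0.0044 for *Pfkm*, -0.038 for *Pfkfb3* and -0.071 for *Pfkfb4* in CypD KO minus WT, and 0.1 TPM in place of 1 gave -0.085 for *Pgam2* in Control minus WT. When a library was left out, *Pfkfb4* ran from -0.16 to 0.16 in CypD KO minus WT. In CypD OE minus Control *Pfkfb1* ran from -0.63 to 0.63 and *Pgam2* from -0.78 to 0.0051. In Control minus WT *Pfkfb2* ran from -0.22 to 0.15, *Pgam2* from -0.37 to 0.42 and *Eno3* from -0.32 to 0.22. In CypD OE minus WT *Pfkp* ran from -0.13 to 0.041, *Pfkfb1* from -0.89 to 0.37, *Pfkfb2* from -0.30 to 0.058, *Pfkfb3* from -0.26 to 0.055, *Pfkfb4* from -0.21 to 0.11, *Aldoc* from -0.30 to 0.09, *Gapdh* from -0.041 to 0.001 and *Pgam2* from -0.72 to 0.00066. In CypD KO minus Control *Slc2a6* ran from -0.022 to 0.47, *Slc2a8* from -0.37 to 0.39 and *Pfkfb1* from -0.031 to 0.14, and rescaling gave -0.051 for *Slc2a8* and -0.0061 for *Pfkfb1*. *Pgam2* rested on 0 to 21.4 fragments a library, a depth too low to show small differences. *Pfkfb1* had 18.8 and 73.1 fragments in the 2 CypD OE libraries, a spread whose cause was not tested.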
